A study of Mus musculus with 2 samples.

Results

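miR-221 and miR-222 are a pair of related microRNAs whose hairpins lie side by side on the mouse X chromosome. All rows named miR-221 or miR-222 in the deposited count files were taken, which gave 3 of the 197 named miRNAs: mmu-miR-221-3p (424 and 486 counts in replicates 1 and 2), mmu-miR-222-3p (178 and 225) and mmu-miR-222-5p (1 and 1). The passenger arm miR-221-5p was not listed in either. The mice were wild-type C57BL/6 animals, 2 to 3 months of age and fed ad libitum, and the tissue was liver. The libraries form 1 control group of 2 replicates, with no treated or mutant group, so levels were described and no condition was compared. Total RNA was extracted with Trizol and 1 µg went into each Illumina TruSeq small RNA library. The labels do not state whether separate animals gave the replicates, and p-values set these 2 libraries against counting error only, so a difference between them may be technical.

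A miRNA gene is transcribed into a long primary transcript, from which Drosha and Dicer cut a hairpin and then a short duplex. One strand of the duplex, the guide, is loaded into an Argonaute protein and pairs with target mRNAs mainly through its seed, while the other, the passenger, is mostly degraded. miR-221 and miR-222 are processed from a shared primary transcript, and their known targets include Cdkn1b, an inhibitor of cyclin-dependent kinases, and Kit, a receptor tyrosine kinase. They are studied in endothelial cells, in activated hepatic stellate cells and in liver cancer, where their levels are often raised.

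The mature sequences are shown because the 3p arms share a seed and differ after it. Capitals mark the seed (bases 2 to 8), and sequences run 5′ to 3′. The listed sequence of each 3p arm was identical in both libraries, while that of miR-222-5p differed between them. RefSeq sequences are for GRCm38.p6, and all lie on the minus strand.
miR-221-3p, listed: aGCUACAUugucugcuggg
miR-221-3p, RefSeq: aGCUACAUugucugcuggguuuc
miR-222-3p, listed: aGCUACAUcuggcuacugggucucu
miR-222-3p, RefSeq: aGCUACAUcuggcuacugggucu
miR-222-5p, listed in replicate 1: uCAGUAGCcaguguagauccug
miR-222-5p, listed in replicate 2: cUCAGUAGccaguguagauccu
miR-221-5p, RefSeq, not listed: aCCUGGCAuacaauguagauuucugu

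The RefSeq 3p arms had their first 8 bases in common and were identical at 11 of 23 positions when aligned from the 5′ end without gaps. They thus carry the same seed but differ enough beyond it to be told apart by sequence. The hairpins are shown to place the arms, with the 3p arm in capitals.
Mir222 hairpin: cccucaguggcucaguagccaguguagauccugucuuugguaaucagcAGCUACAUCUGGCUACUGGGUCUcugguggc
Mir221 hairpin: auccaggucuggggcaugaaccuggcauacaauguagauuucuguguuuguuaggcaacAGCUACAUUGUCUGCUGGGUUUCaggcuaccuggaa

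In the GENCODE M21 annotation of GRCm38, the Mir222 hairpin (79 bases) lay at chrX:19146893-19146971 and the Mir221 hairpin (95 bases) at chrX:19146294-19146388. Mir222 comes first in the direction of transcription, and 504 bases separate the hairpins. Each hairpin is the exon of its own miRNA gene, and no other annotated gene overlapped the span of both. The nearest annotated gene upstream on the same strand was Gm14636, a non-coding transcript whose near end lies 10009 bases away, at chrX:19156981-19167241. The next protein-coding gene at higher coordinates, Tex13c3, lay 332448 bases away.

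The level of miR-221-3p was intermediate for this liver. Its counts were 424 in replicate 1 and 486 in replicate 2, out of 306351 and 538023 counts of named miRNAs. These are shares of 0.138% (exact 95% interval 0.126 to 0.152) and 0.0903% (0.0825 to 0.0987), with a mean of 0.114% ± 0.0340 (SD, n = 2). Replicate 1 gave the higher share, and the intervals of the libraries did not overlap. The data are bulk tissue, in which fewer cells of a type and less RNA per cell cannot be told apart.

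miR-222-3p was lower than miR-221-3p in both libraries. Its counts were 178 and 225 in replicates 1 and 2, or 0.0581% (exact 95% interval 0.0499 to 0.0673) and 0.0418% (0.0365 to 0.0477). Its mean share was 0.04996% ± 0.0115 (SD, n = 2). Replicate 1 was again the higher, and the intervals did not overlap. Shares here and for miR-221-3p above are not corrected for differences in composition between the libraries. In the test below that makes this correction, miR-222-3p did not pass (2-sided exact binomial test, adjusted p = 0.0692). miR-222-5p had 1 count in each library, a mean share of 0.000256% ± 9.94e-05. All listed arms together took 0.197% of replicate 1 and 0.132% of replicate 2, or 603 and 712 counts.

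Among the 151 miRNAs listed in both libraries, miR-221-3p ranked 45 and miR-222-3p ranked 60 by mean log2 CPM (CPM scales each count to its library's total of named miRNA counts). Shares of 70.2% and 60.3% of these miRNAs had a lower mean level. miR-222-5p was at the bottom, level with miR-15b-3p, which also had 1 count in each library. The hepatocyte miRNA miR-122-5p exceeded miR-221-3p 18.1-fold in replicate 1 and 33.7-fold in replicate 2. miR-22-3p, the most abundant miRNA, exceeded it 243-fold and 376-fold. Each mature miRNA gives 1 tag, so these levels carry no length term. The counts are relative and were not scaled to known amounts of RNA. How evenly different sequences entered the libraries was not measured, so folds between miRNAs here and below are folds of counts.

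**Figure D1:**
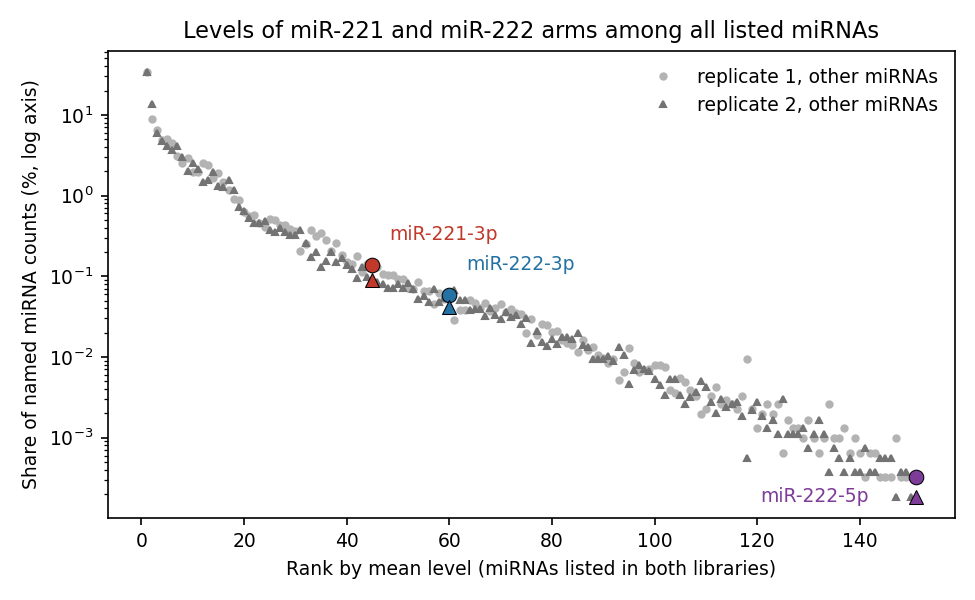
Share of named miRNA counts (percent, log axis) against rank by mean level, for the 151 miRNAs listed in both libraries; circles are replicate 1 and triangles replicate 2. miR-221-3p (rank 45) and miR-222-3p (rank 60) sit in the middle of the range, and miR-222-5p, with 1 count in each library, sits at its end.

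The miRNAs nearest in level differed from each 3p arm in mean log2 CPM by less than that arm's own SD between libraries. That SD includes shifts between libraries that neighbours can share, so it does not test their order within a library. For miR-221-3p the SD of log2 CPM was 0.44. Its 10 nearest neighbours in level differed from it by 0.37 (miR-151-5p) to -0.39 (miR-103-3p) in mean log2 CPM. The closest were miR-93-5p above it, at 0.118% ± 0.0301, and let-7e-5p below it, at 0.108% ± 0.0319 (SD, n = 2). The others were miR-139-5p, miR-15b-5p and miR-100-5p above, and miR-30b-5p, miR-186-5p and miR-31-5p below. Of the 10, miR-100-5p alone lay on different sides of miR-221-3p in the 2 libraries.

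For miR-222-3p the SD of log2 CPM was 0.34, and its 10 neighbours differed from it by 0.32 (miR-676-3p) to -0.20 (miR-331-3p). The closest were miR-378a-5p above it, at 0.0526% ± 0.00138, and miR-1948-3p below it, at 0.0487% ± 0.0278 (SD, n = 2). miR-23a-3p, miR-127-3p and miR-130a-3p also lay above, and miR-181c-5p, miR-671-3p and miR-181b-5p below. Of these 10, 5 changed sides between the libraries, so the exact rank of miR-222-3p is less certain than that of miR-221-3p. Several of these names (let-7e, miR-103, miR-181b, miR-30b) have close relatives or other copies, between which reads can be split.

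On chromosome X, miR-221-3p ranked 3 by mean share among 18 named miRNAs. It lay below miR-351-5p (0.392% ± 0.0508) and the X-linked copy of miR-92a-3p (0.267% ± 0.0281), whose reads may also come from its other locus. Below it came miR-501-3p (0.0820% ± 0.0137) and miR-676-3p (0.0616% ± 0.00565), and miR-222-3p stood at rank 6. miR-361-3p, miR-532-5p, miR-361-5p and miR-1198-5p were lower, from 0.0353% ± 0.00549 down to 0.00726% ± 0.00104 (SD, n = 2). The arms of Mir221 and Mir222 made up 17.5% of the counts on this chromosome in replicate 1 (exact 95% interval 16.2 to 18.8) and 13.2% in replicate 2 (12.3 to 14.1).

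**Figure D2:**
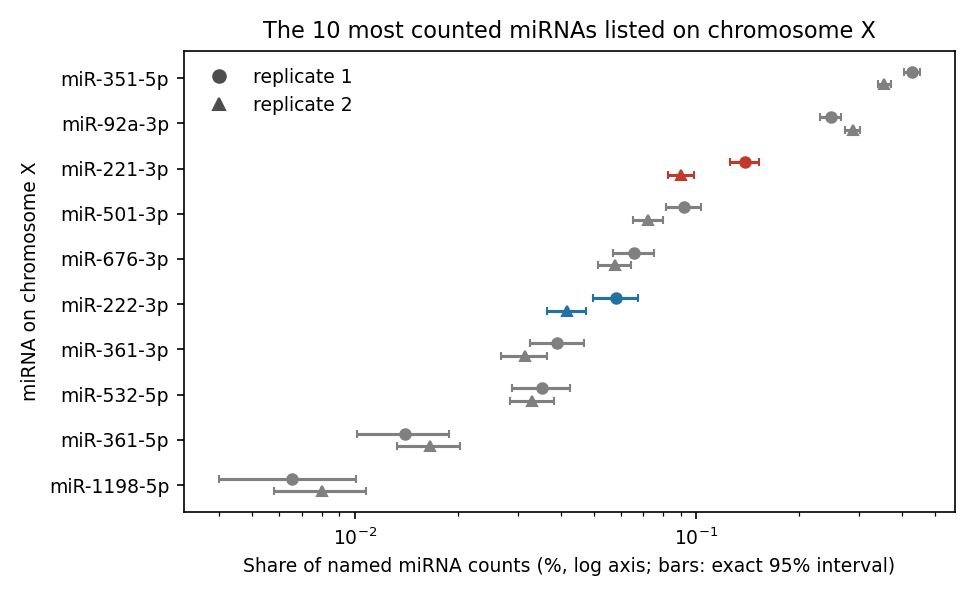
Share of named miRNA counts (percent, log axis) of the 10 most counted miRNAs listed on chromosome X; circles are replicate 1, triangles replicate 2, and bars are exact 95% intervals. miR-221-3p (red) ranks 3 at 0.138% and 0.0903%, and miR-222-3p (blue) ranks 6 at 0.0581% and 0.0418%.

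The hairpins of this shared transcript were compared by the ratio of the counts of their 3p arms. The files do not say whether reads of other lengths entered a count, and the arms are listed with 19 and 25 bases, so the ratio could depend on that. miR-221-3p exceeded miR-222-3p 2.38-fold in replicate 1 (exact 95% interval 1.99 to 2.85) and 2.16-fold in replicate 2 (1.84 to 2.54). The mean ratio was 2.27 ± 0.157 (SD, n = 2), and miR-221-3p was higher in 2 of 2 libraries. Counts differed from an equal split in each library (2-sided exact binomial test, adjusted p = 8.07e-24 and 5.97e-23). The split itself did not pass a test between libraries (2-sided Fisher's exact test, p = 0.435). The odds ratio of replicate 1 to replicate 2 was 1.10 with a 95% interval of 0.865 to 1.41, so a difference up to that size is not excluded by the counts.

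Other neighbouring hairpins on the same strand within 10 kb were measured in the same way, each by its more abundant arm. The 17 such pairs seen in both libraries had a median fold of 4.37 between partners. The 2.27-fold of Mir221 and Mir222 (geometric mean over both libraries) was larger than that of only 2 pairs, Mir145a with Mir143, the lowest at 1.05-fold, and Mirlet7d with Mirlet7f-1 at 2.02-fold. The highest ratio was that of Mir99a and Mirlet7c-1, at 63.2-fold. The log2 ratio of Mir221 to Mir222 also varied little between the libraries, with an SD of 0.10 against a median of 0.20 over all pairs, and 3 pairs varied less. A limit of 1 kb, chosen after the data were seen, left out both pairs with a smaller ratio. Mir221 and Mir222 then had the lowest ratio of 11 pairs, which follows from that limit. By contrast, the order of Mir145a and Mir143 differed between the libraries. These values describe the pairs, and many hairpins of the let-7 and miR-30 families have other copies or close relatives.

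**Figure D3:**
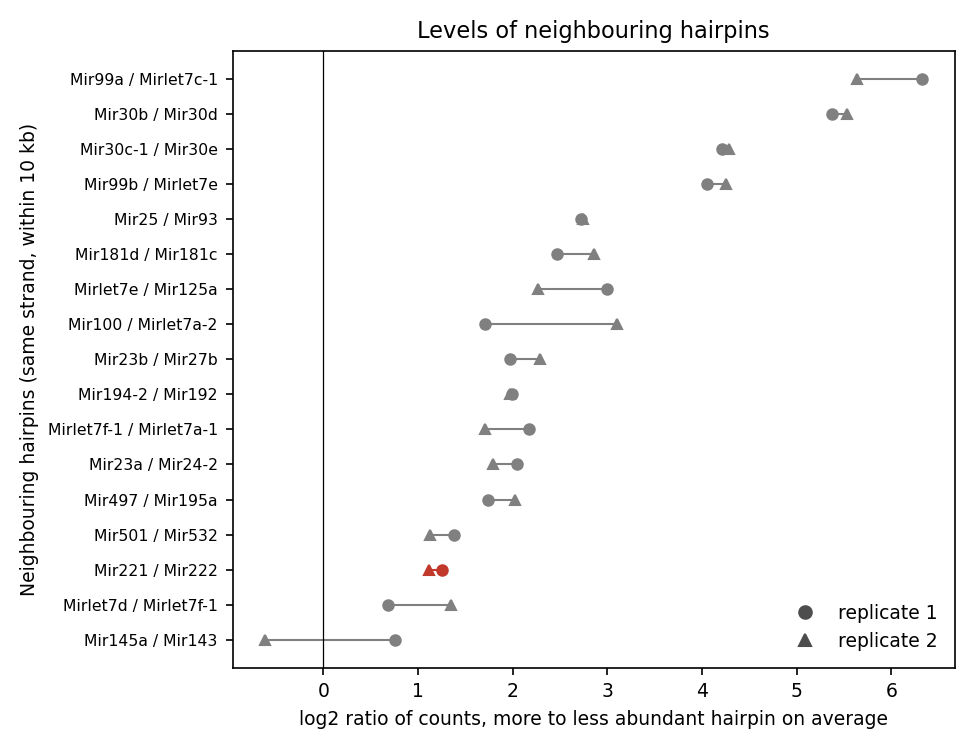
Log2 ratio of counts between neighbouring hairpins, oriented from the more to the less abundant on average, for 17 pairs; circles are replicate 1 and triangles replicate 2. Mir221 and Mir222 (red) lie near the low end at 1.25 and 1.11, with the libraries close together.

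Both hairpins were listed almost wholly by the 3p arm. In Mir222 the 5p arm had 1 of 179 counts in replicate 1 and 1 of 226 in replicate 2. These are 0.559% (exact 95% interval 0.0141 to 3.07) and 0.442% (0.0112 to 2.44), a mean of 0.501% ± 0.0822 (SD, n = 2). The 3p arm exceeded the 5p arm in each library (2-sided exact binomial test, adjusted p = 7.61e-52 and 6.82e-66 over 47 hairpins). Dominance of the 3p arm in both libraries was found for 51.1% of these hairpins and dominance of the 5p arm for 42.6%, so Mir222 is of a frequent kind. The arm shares of Mir222 did not pass a test between the libraries (Fisher's exact test, adjusted p = 1), where 8.51% of hairpins did.

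The share of the minor arm in Mir222 was lower than the median of 1.29% over the 47 hairpins, of which 20 had a lower one. With 1 count behind it in each library, that share rests on the smallest number that can be seen, and the intervals above give its precision. Mir221 could not be entered in this test because its 5p arm was not listed. It was 1 of 12 hairpins listed by the 3p arm alone in both libraries, out of 99 hairpins listed in both. The only ones of these 12 with more counts than Mir221 were Mir92-2 and Mir320. The files list called loci only, so the missing miR-221-5p sets no upper limit on its level.

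The 5′ ends of both 3p arms, which set the seed, lay at the RefSeq position in both libraries. This was also the case for 89.6% of 144 matched loci in replicate 1 and 89.4% of 160 in replicate 2. The 3′ ends departed from RefSeq in opposite directions. miR-221-3p was listed with 19 bases at chrX:19146311-19146329, 4 bases shorter than the 23 bases of RefSeq. miR-222-3p was listed with 25 bases at chrX:19146899-19146923, 2 bases longer than RefSeq, and the added bases are those of the hairpin. Both lengths were the same in the 2 libraries, while the median length of all matched loci was 22.

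A 3′ end 4 or more bases short was seen at 4 matched loci in replicate 1 and 6 in replicate 2. Among loci with at least 10 counts, miR-221-3p and miR-125a-5p were the only ones, in both libraries. A 3′ end 2 or more bases long was seen at 13 and 12 loci, among them miR-21a-5p, miR-30a-5p and miR-30e-5p. The miR-222-5p reads also differed from each other, with the replicate 2 sequence starting 1 base further upstream (chrX:19146940-19146961 against chrX:19146939-19146960). Each of these is a single read. The files give 1 sequence per locus, and whether the counts hold reads with other ends was not analysed here.

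**Figure D4:**
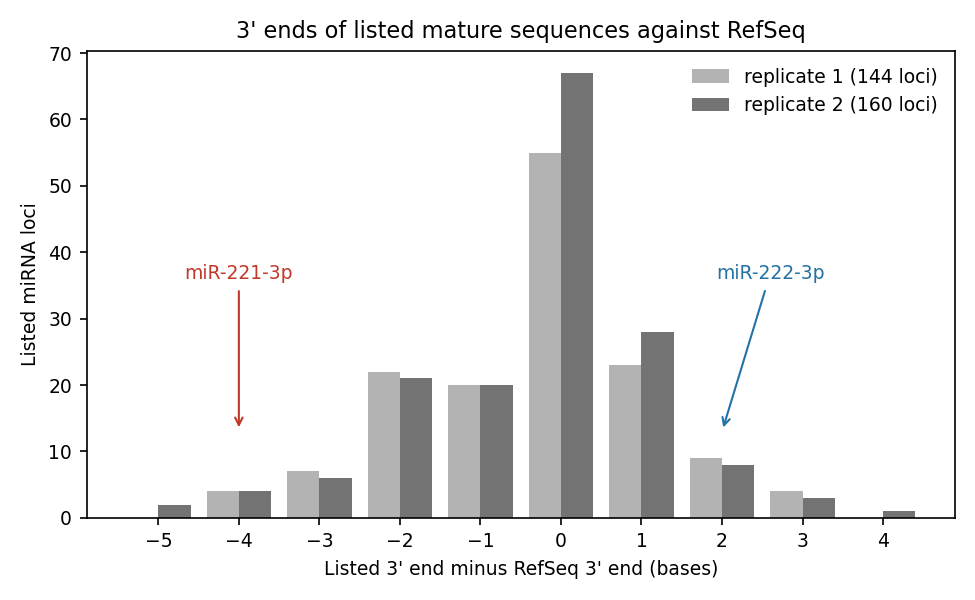
Number of matched miRNA loci by the distance of the listed 3′ end from the RefSeq 3′ end (bases), for replicate 1 (144 loci, light) and replicate 2 (160 loci, dark). miR-221-3p is at -4, where 4 loci of each library lie, and miR-222-3p is at 2, on the other side of the main peak.

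Between the libraries, miR-221-3p was lower in replicate 2, by a log2 ratio of -0.45 (95% interval -0.64 to -0.26) at TMM effective library sizes, which correct for composition as well as depth. It passed the 2-sided exact binomial test over all 131 tested miRNAs with an adjusted p of 1.26e-05. miR-222-3p had a log2 ratio of -0.31 (-0.60 to -0.02) and did not pass, with an adjusted p of 0.0692 in the same exact test. So 1 of the 2 tested arms passed, against 44.3% of all tested miRNAs (22.9% lower and 21.4% higher), a share near that background. Among miRNAs with at least 100 counts summed, a limit chosen after the data were seen, 58.6% passed and 31% were lower in replicate 2. miR-222-5p had too few counts to be tested.

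Differences as large as these were frequent between the libraries. The median absolute log2 ratio of all tested miRNAs was 0.35, and 45 of them had a larger one than miR-221-3p. That 1 arm passed and the other did not does not show a difference between them, and the test of that difference is the one of their split above (p = 0.435, Fisher's exact test). When library totals replaced TMM, the median of all tested miRNAs moved from -0.03 to -0.19, and calls went from 28 higher and 30 lower to 19 and 45. miR-222-3p then passed, with a log2 ratio of -0.48 and an adjusted p of 0.00352 in the exact test. Relative to the median of all tested miRNAs, miR-221-3p stood at -0.43 and miR-222-3p at -0.29. These distances are the same under both scalings by construction, because a change of scaling shifts all log2 ratios alike.

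**Figure D5:**
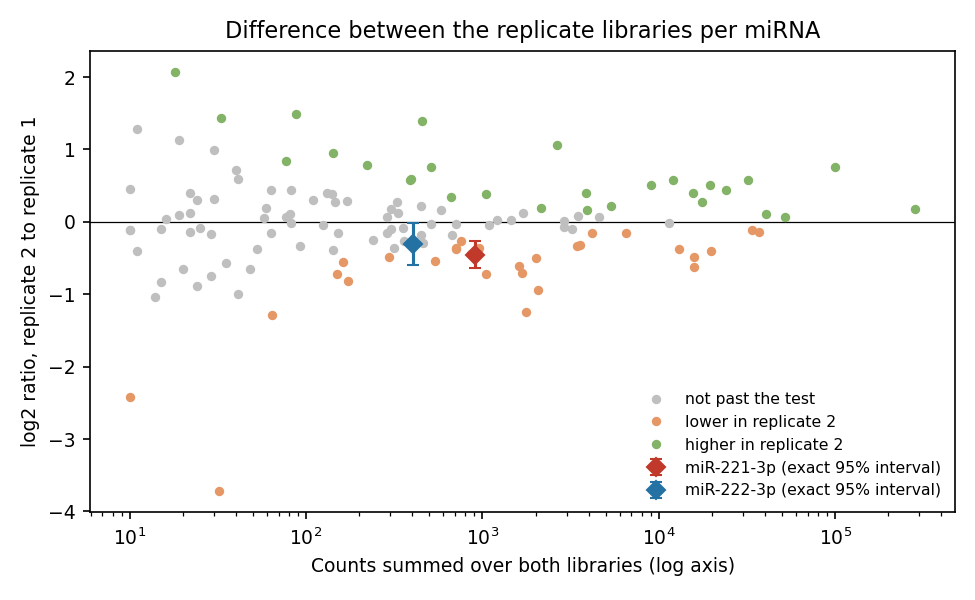
Log2 ratio of replicate 2 to replicate 1 against counts summed over both libraries (log axis) for 131 miRNAs, coloured by the exact binomial test; diamonds with exact 95% intervals are miR-221-3p (red, -0.45) and miR-222-3p (blue, -0.31). Both lie below 0, inside the cloud of the other miRNAs.

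The miRNAs nearest to miR-221-3p in this ratio, among those with at least 100 counts summed, were let-7e-5p (-0.45), let-7b-5p (-0.48), miR-183-5p (-0.48), miR-150-5p (-0.50) and let-7c-5p (-0.40). Nearest to miR-222-3p were miR-26b-5p (-0.32), miR-23a-3p (-0.29), let-7g-5p (-0.34), miR-342-3p (-0.35) and miR-30b-5p (-0.26). Likeness here is the distance between log2 ratios of 2 libraries, which cannot show a shared pattern. Of 8 other tested miRNAs whose highest locus is on chromosome X, 0 passed the test, against 44.3% of all tested miRNAs. Their log2 ratios ran from -0.18 to 0.44. Some had few counts, such as miR-532-3p with 4 and 6, and with 8 names nothing is read from this.

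Markers of cell types were compared beside the members, since liver tissue holds more than hepatocytes. The hepatocyte list had all 4 of its miRNAs listed and took 4.99% ± 0.231 of counts, with miR-122-5p and then miR-192-5p highest. Endothelial miR-126a-5p stood at 0.0368% ± 0.00473, and miR-221-3p exceeded it 3.45-fold in replicate 1 and 2.70-fold in replicate 2. miR-126a-3p was far lower, at 0.00314% ± 0.00155. The stellate and mesenchymal miR-145a-5p (0.238% ± 0.152) and miR-143-3p (0.202% ± 0.00393) and the immune miR-150-5p (0.254% ± 0.0808) stood above miR-221-3p in mean share, and miR-146a-5p (0.0224% ± 0.0104) below it. These are only the 2 highest arms of each list. The other stellate and mesenchymal arms lay far below miR-221-3p: miR-143-5p (0.00328%), miR-214-3p (0.00279%), miR-214-5p (0.00254%) and miR-145a-3p (0.000512%). So did miR-199a-5p, listed in replicate 2 alone (0.00892%), and the immune miR-150-3p (0.000442%).

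The marker lists were also compared between the libraries. Their counts stand against 22.9% of all tested miRNAs lower in replicate 2 and 21.4% higher, and with so few arms per list nothing is read from them. Of the immune list, miR-150 and miR-146a were listed (2 of 5), and miR-142a, miR-155 and miR-223 were not. Both tested immune arms were lower in replicate 2, and the list took 0.341% and 0.212% of counts. In the stellate and mesenchymal list 4 of 5 miRNAs were listed. Of 5 tested arms 1 was lower, miR-145a-5p, with a log2 ratio of -1.24 and shares of 0.346% and 0.130%. The other 4 did not pass, with log2 ratios from 0.12 (miR-143-3p) to 1.00 (miR-143-5p). The list took 0.559% and 0.349%. Of the endothelial list only miR-126a was listed (1 of 2). Its 2 arms did not pass, with 0.0444% and 0.0355%, and in the hepatocyte list 3 of 7 arms were higher and 1 lower, with 4.83% and 5.16%. Of the biliary list only miR-200b was listed (1 of 5), so its share is that of this miRNA alone. Its 1 tested arm, miR-200b-3p, was higher (log2 ratio 0.79). The list took 0.0206% and 0.0309%, with miR-200b-5p at 3 counts in each. Of the erythroid list only miR-486b-5p was listed, with 14 counts in replicate 2. The part of these cell types in the difference of miR-221-3p was not tested.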

How the data were processed

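Small RNA libraries of mouse liver were sequenced, 2 in all. The authors deposited raw read counts, whole numbers per called miRNA locus, with the position and the sequences of each locus, per the file headers. Named in the submitters' processing notes are the build GRCm38 (mm10), Bowtie 1.0.1, cutadapt 1.5 and FastQC 0.11.2. These notes, the labels and the file headers do not name the program that called the loci or its filters, nor say whether reads of other lengths entered the count of a locus.

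Loci without a miRNA name (5.02% and 2.46% of counts) were left out. A name with several loci was represented by its highest count, and a name missing from a file was treated as not listed. File positions were raised by 1. Shares carry exact Clopper-Pearson 95% intervals, which cover counting error only, as do all tests here. PCR reads without molecular identifiers are not independent molecules.

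Replicate 2 was compared with replicate 1 by a 2-sided exact binomial test at TMM effective library sizes (edgeR 4.0.16), over names listed in both with at least 10 counts summed, with Benjamini-Hochberg adjustment and a threshold of 0.05. Log2 ratios have a prior count of 0.5. Arm shares used 2-sided exact binomial and Fisher's exact tests (scipy 1.17.1) over hairpins with both arms listed and at least 20 counts in each library. Alternatives included DESeq2 1.42.0 size factors. No quasi-likelihood test was run, because the series has 1 group.

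The members, lists and tests were chosen with earlier results of these data known. Named are all arms of both hairpins, the 5 miRNAs next above and below each 3p arm in level, the 5 nearest to each in log2 ratio with at least 100 counts summed, the 2 highest of each cell type list, up to 10 miRNAs on chromosome X, and the pairs of neighbouring hairpins with the highest and lowest ratio. Other names were chosen after their values were seen.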

Additional observations from a re-analysis of the deposited data

How the results depend on the processing

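The levels, the ratio and the arm share of miR-221 and miR-222 moved by less than the SD of the libraries with all listed counts as the denominator, summed loci, unlisted arms as 0 or no prior count, each where it applied. With 2 libraries, each library alone lies within 1 SD of the mean by construction, so leaving one out says nothing about the stability of these values. miR-221-3p passed the exact binomial test between libraries in all 6 alternatives, with adjusted p from 9.12e-10 to 6.40e-05. Other count minima, or unlisted names as 0, kept its counts and log2 ratio (-0.45) and changed only the adjustment, so they test little. miR-222-3p passed with library totals alone (log2 ratio -0.48, adjusted p = 0.00352), and its adjusted p was 0.0565 to 0.120 in the others. With 1 library left out, the rank of miR-221-3p was 44 to 45 and that of miR-222-3p 58 to 63, against 45 and 60. Chosen after seeing the data, loci with at least 10 counts gave 91.4% with the RefSeq 5′ end in place of 89.5%, and pairs with at least 20 counts per hairpin gave a median log2 ratio of 2.27 in place of 2.13. The cause of these differences was not tested. No paired analysis was possible because the series has 1 group. Leaving out a library leaves no comparison between libraries. The counts give little precision for the passenger arms, at 1 count or unlisted.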

Other observations

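Only 3 of 1679 RefSeq mature names held the seed of miR-221-3p and miR-222-3p. The third was miR-1928 (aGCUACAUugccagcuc), which has 17 bases and shares the first 10 with miR-221-3p. It was not listed in either library, so miR-221-3p and miR-222-3p were the only listed miRNAs with this seed.

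The hairpin listed for miR-221-3p differed from RefSeq in replicate 2 by the substitution C59A, counted from the 5′ end of the RefSeq hairpin (RefSeq base first), at the base just before the 3p arm. In replicate 1 it had no difference, and the Mir222 hairpins had none in either library. Of the listed hairpins that lay within their RefSeq hairpin, 39 of 133 in replicate 1 (29.3%) and 34 of 146 in replicate 2 (23.3%) had no difference from it, and 31 and 46 had exactly 1. In the deposited structures all 7 seed bases of miR-221-3p were paired in both libraries, against 5 of 7 for miR-222-3p. These structures are of listed hairpins with 54 and 57 bases for miR-221-3p and 68 in both libraries for miR-222-3p. The RefSeq hairpins have 95 and 79 bases. Pairing was not set against that of other miRNAs, so nothing is read from this contrast.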
